A study of Mus musculus with 3 samples.

Results

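The transcripts of 10 chemokine ligand genes, Ccl2, Ccl3, Ccl4, Ccl5, Ccl7, Ccl12, Ccl22, Ccl24, Cxcl2 and Cxcl16, were followed across single cells sorted for Cd11b from mouse brain. The members were taken by gene symbol, and all 10 had a row among the 27998 genes of the matrix. Cells came from the whole brain except the cerebellum of female C57BL6J mice aged 5 months. Per the labels, 3 libraries were made: naive mice (Ctrl, 1 animal), mice after 14 days of diet carrying PLX5622 at 1200 mg/kg (D0, 2 animals pooled), and mice given the same diet and then 2 days of control diet (D2, 1 animal). PLX5622 inhibits Csf1r, the receptor on which microglia depend for survival. The deposited barcodes carry a suffix of 1, 2 or 3, and no label used here ties a suffix to Ctrl, D0 or D2. Values are therefore given for libraries 1, 2 and 3 side by side, with no comparison of the treatments and no p-value.

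Chemokines are small secreted proteins that steer leukocytes by binding G-protein-coupled receptors. Ccl3, Ccl4 and Ccl5 attract monocytes and T cells, and Ccl3 and Ccl5 signal through Ccr1. Ccl2, Ccl7 and Ccl12 recruit monocytes through Ccr2. Ccl22 binds Ccr4 on T cells, Ccl24 binds Ccr3 on eosinophils, Cxcl2 draws neutrophils through Cxcr2, and Cxcl16 binds Cxcr6 on T and NK cells. In the brain, microglia and macrophages of the meninges and perivascular spaces can make several of them.

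After filtering, 1261, 594 and 280 cells remained in libraries 1, 2 and 3, with a median of 3662, 6188 and 8172 unique molecular identifiers (UMIs, counted transcripts) per deposited cell. No barcode was shared between libraries. Clusters were built with every chemokine ligand gene left out and named from marker genes. The share of microglia-like cells was 85.6% in library 1, only 10.8% in library 2 and 1.79% in library 3, so most cells of libraries 2 and 3 fell outside the microglia-like class. Border-associated-macrophage-like (BAM-like) cells, 62 in all, were found in library 1 only. Their cluster also passed for all 10 microglia markers, and 8 of its 10 leading genes were BAM markers. Itgam, which encodes Cd11b, had UMIs in 635 of 1148 microglia-like and 49 of 62 BAM-like cells, but in 1 of 59 cells like mature migratory dendritic cells. Of 26 clusters, 7 were left unnamed and are called by their number and leading genes.

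Levels are CPM, the UMIs of a gene per 1000000 UMIs of the summed cells. The method counts 1 tag per transcript, and levels are set side by side between genes on that basis. How reads that match several related ligands were counted is not given, so rankings between such genes carry that limit. All intervals are 95% intervals that cover counting error only, not differences from animal to animal or from cell to cell. The latter were large for several ligands, for which the share of UMIs in the top cell is given. Together the 10 ligands made up 0.565% of all UMIs in library 1, 0.837% in library 2 and 0.567% in library 3.

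Over all cells, Ccl4 and Ccl3 were the highest of the 10 ligands in library 1, Ccl5 and Ccl4 in library 2, and Ccl12 and Ccl4 in library 3. Ccl4 stood at 2868 CPM in library 1, 2096 in library 2 and 1495 in library 3. Ccl3 was lower than Ccl4 in each library, at 1768, 1047 and 655 CPM. Both were highest in library 1 and lowest in library 3, with intervals that did not overlap. Ccl5 differed most among the abundant ligands, with 156 CPM in library 1, 4349 in library 2 and 713 in library 3. Ccl12 was high in library 3 alone, at 265, 78.3 and 1717 CPM. Ccl2 had its lowest level in library 2, at 195, 39.4 and 465 CPM. Ccl7, its neighbour gene, shared that low point at 93.4, 1.5 and 72.4 CPM, the library 2 value resting on 6 UMIs. Ccl24 was found almost entirely in library 1, with 47.0 CPM against 2.25 and 3.68. Ccl22 reached 173 CPM in library 2 against 9.53 and 26.1. Cxcl2 stood at 125, 298 and 363 CPM, and Cxcl16 at 120, 281 and 164 CPM.

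**Figure D1:**
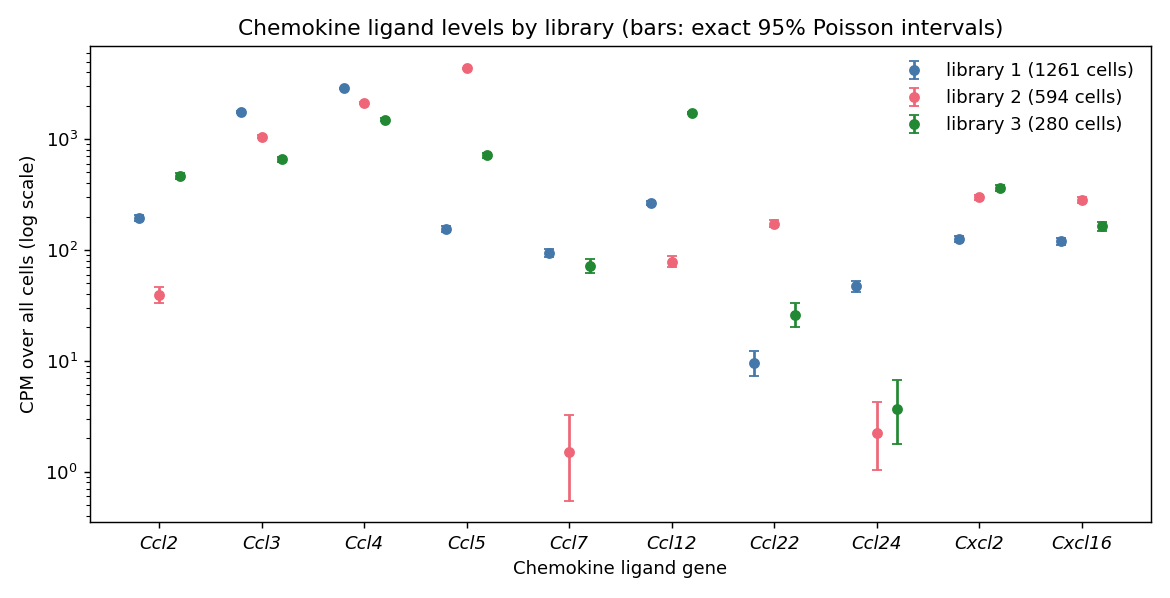
Level of each of the 10 chemokine ligands over all cells of libraries 1, 2 and 3, in CPM on a log axis, with exact 95% Poisson intervals. Ccl5 spans 156 to 4349 CPM and Ccl12 spans 78.3 to 1717 CPM, while Ccl7 falls to 1.5 CPM in library 2.

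A 2-fold difference was counted where a gene had at least 50 UMIs in both libraries together. Between libraries 2 and 1, 4 of 10 ligands were higher in library 2 (Ccl5, Ccl22, Cxcl2, Cxcl16), where 11.1% of all 9186 genes were. The same number were lower (Ccl2, Ccl7, Ccl12, Ccl24), against 25.6% of all genes. Between libraries 3 and 1, 5 of 10 were higher in library 3 (Ccl2, Ccl5, Ccl12, Ccl22, Cxcl2), against 12.2% of all genes, and Ccl3 and Ccl24 were lower, against 24.2%. Between libraries 3 and 2, 3 of 9 ligands were higher in library 3 (Ccl2, Ccl7, Ccl12), against 5.19%, and 2 were lower (Ccl5, Ccl22), against 3.80%. In these sums, more cells of a type and more RNA per cell cannot be told apart, and the makeup of the libraries differed as given above.

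Each ligand was assigned the class that supplied most of its UMIs over the 3 libraries together. Microglia-like cells were the main source of Ccl3 (60.9% of its UMIs, interval 60.2 to 61.6) and Ccl4 (55.8%, 55.3 to 56.4). Cells like mature migratory dendritic cells supplied 64.8% of Ccl5 and 81.3% of Ccl22, though they were 2.76% of all cells. BAM-like cells, 2.90% of all cells, supplied 66.4% of Ccl7 and 76.2% of Ccl24. A cycling cluster (cluster 11, led by Birc5, Ube2c, Top2a and Arg1) supplied 58.6% of Ccl12. The other ligands had less than 31% from any source. The largest parts were microglia-like cells for Ccl2 (30.4%) and Cxcl16 (25.5%), and cluster 3.2, led by Cxcr2, G0s2 and Slpi, for Cxcl2 (18.7%). For Ccl2 the leading source differed by library, with BAM-like cells at 42.7% and microglia-like cells at 39.9% in library 1, microglia-like cells at 43.0% in library 2 and cluster 11 at 50.2% in library 3. A single microglia-like cell held 165 of their 813 Ccl2 UMIs, and without it microglia-like cells and cluster 11 gave 25.9 and 25.8%. These shares follow how many cells of each class a library held. Without library 1, microglia-like cells gave only 20.5% of Ccl3 and 14.7% of Ccl4. Without library 2, migratory-dendritic-like cells gave 21.5% of Ccl5 and 47.0% of Ccl22. Without library 3, cluster 11 gave 0.597% of Ccl12.

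**Figure D2:**
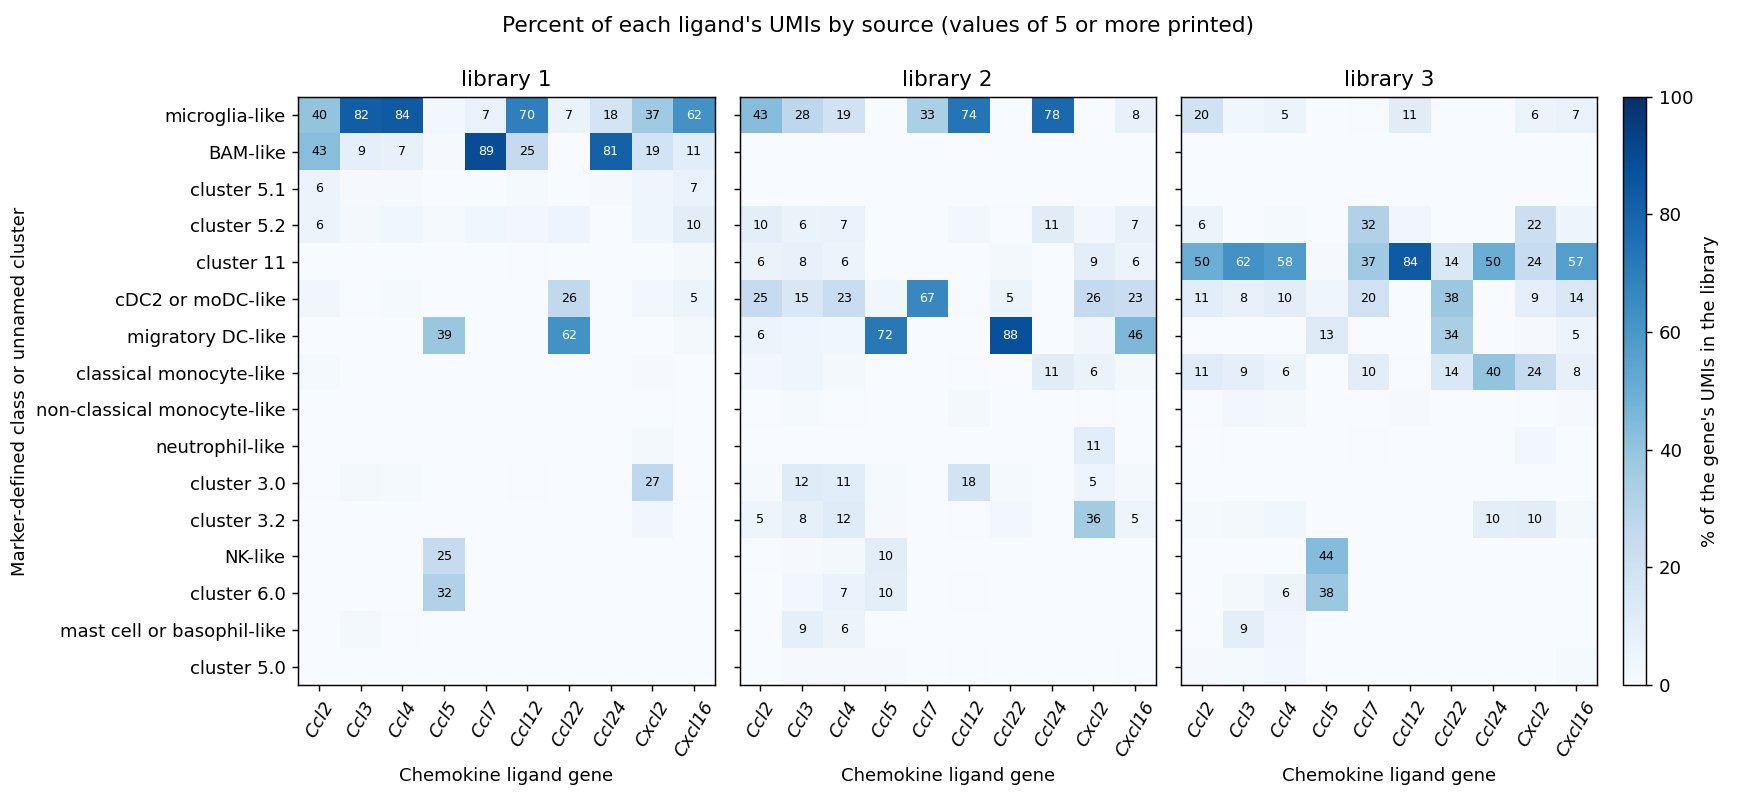
Percent of each ligand's UMIs (columns) that came from each class or unnamed cluster (rows), in libraries 1, 2 and 3, with values of 5 or more printed. The darkest entries lie in the microglia-like and BAM-like rows in library 1, the migratory DC-like row for Ccl5 (72.2%) and Ccl22 (87.8%) in library 2, and the cluster 11 row for Ccl12 (83.5%) in library 3.

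Promoter sequences were at hand for 4 of the ligands and are all shown. Ccl3, Ccl12 and Ccl22 had different main sources, and Cxcl2 had at most 18.7% from any class or cluster. The sequences run 5′ to 3′ on the strand of the gene and are RefSeq bases upstream of the transcription start, cut back for Ccl22 and Cxcl2 to end before the start of the gene in the GENCODE annotation, on GRCm38.p6, at chr11:83649379-83649578 (minus strand) for Ccl3, chr11:82101645-82101844 (plus) for Ccl12, chr8:94745484-94745589 (plus) for Ccl22 and chr5:90903699-90903870 (plus) for Cxcl2. Capitals mark matches, on either strand, to an NF-kB-type motif (GGG, then any 5 bases, then CC) and to TATAAA.
Ccl3: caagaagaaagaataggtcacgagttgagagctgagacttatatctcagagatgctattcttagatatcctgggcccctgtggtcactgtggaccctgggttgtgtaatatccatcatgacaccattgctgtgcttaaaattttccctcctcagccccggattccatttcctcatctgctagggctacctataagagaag
Ccl12: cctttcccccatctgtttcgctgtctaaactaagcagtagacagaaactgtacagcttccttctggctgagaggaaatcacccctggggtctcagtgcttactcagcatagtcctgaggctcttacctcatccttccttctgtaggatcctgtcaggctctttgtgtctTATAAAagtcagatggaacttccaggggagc
Ccl22: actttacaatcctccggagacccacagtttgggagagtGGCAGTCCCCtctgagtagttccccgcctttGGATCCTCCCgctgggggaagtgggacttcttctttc
Cxcl2: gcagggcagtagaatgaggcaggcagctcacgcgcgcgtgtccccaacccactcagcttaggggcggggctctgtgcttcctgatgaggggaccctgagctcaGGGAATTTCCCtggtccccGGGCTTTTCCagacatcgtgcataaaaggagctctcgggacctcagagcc
The NF-kB-type motif was found in Cxcl2 (GGGAATTTCC, which begins 69 bases from the end of the printed sequence, the last base being 1, and GGGCTTTTCC, which begins at 50, with a further match on the other strand overlapping the former) and in Ccl22 (GGCAGTCCCC and GGATCCTCCC, both on the other strand). Of 32851 promoter windows of 200 bases, 41.4% held this motif on either strand. TATAAA, found in 9.96% of windows, was in Ccl12 alone, beginning 31 bases from its end. An AP-1-type motif (TGANTCA, 5.48% of windows) and an interferon-response-type motif (GAAA, any 2 bases, GAAA, 2.27%) had no match in the 4 windows. A match is a run of letters and not a measured binding site.

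Ccl3 and Ccl4, genes 13228 bp apart on chromosome 11 (Ccl3 at 83647844 to 83649355, Ccl4 at 83662584 to 83664683, GRCm38), had UMIs in all 16 classes and unnamed clusters. In microglia-like cells of library 1, Ccl3 stood at 1922 CPM and Ccl4 at 3176 CPM, which was 82.2% and 83.8% of their UMIs in that library. BAM-like cells were close behind, with 1455 and 1872 CPM. In library 2, the 64 microglia-like cells had 3788 CPM of Ccl3 and 5269 CPM of Ccl4, the highest levels among the named classes with at least 20 cells there. Cells like type 2 conventional or monocyte-derived dendritic cells (cDC2 or moDC-like), 142 in that library, held more Ccl4 UMIs (23.2% against 19.2%) at a lower level, 1548 CPM. In library 3, cluster 11 held 62.3% of Ccl3 and 58.5% of Ccl4.

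The highest Ccl3 and Ccl4 levels of any class were in 7 cells like mast cells or basophils, led by Prss34, Mcpt8 and Fcer1a. Ccl3 was 1.06 to 4.33% and Ccl4 0.678 to 5.69% of all UMIs in each of these cells, or 27607 and 26583 CPM in their sum. The 7 cells were spread over all 3 libraries, and all 7 were high for both ligands. Apart from a single Ccl5 UMI in 2 cells, the other 7 ligands had no UMI there. These 7 cells held 755 of 17294 Ccl3 UMIs.

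To compare shares of cells at equal depth, each cell was thinned to 2000 UMIs, and shallower cells were left out. Ccl3 was then found in 52.4% of 1012 microglia-like cells of library 1 (unthinned 60.4%) and Ccl4 in 59.3% (unthinned 65.7%). Among 48 neutrophil-like cells of the 3 libraries the shares were 8.33% and 12.5% (unthinned 16.7 and 25.9%), at a median depth of 3538 UMIs against 3381 in the microglia-like cells. The intervals of these 2 classes did not overlap for either ligand. The 2 ligands were found in the same cells more than independent detection would give: 386 cells had both, against 314 by the product of the shares, and 268 had neither. Across these 1012 cells the log2 values had r = 0.56, and r = 0.73 over 58 microglia-like cells of library 2.

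**Figure D3:**
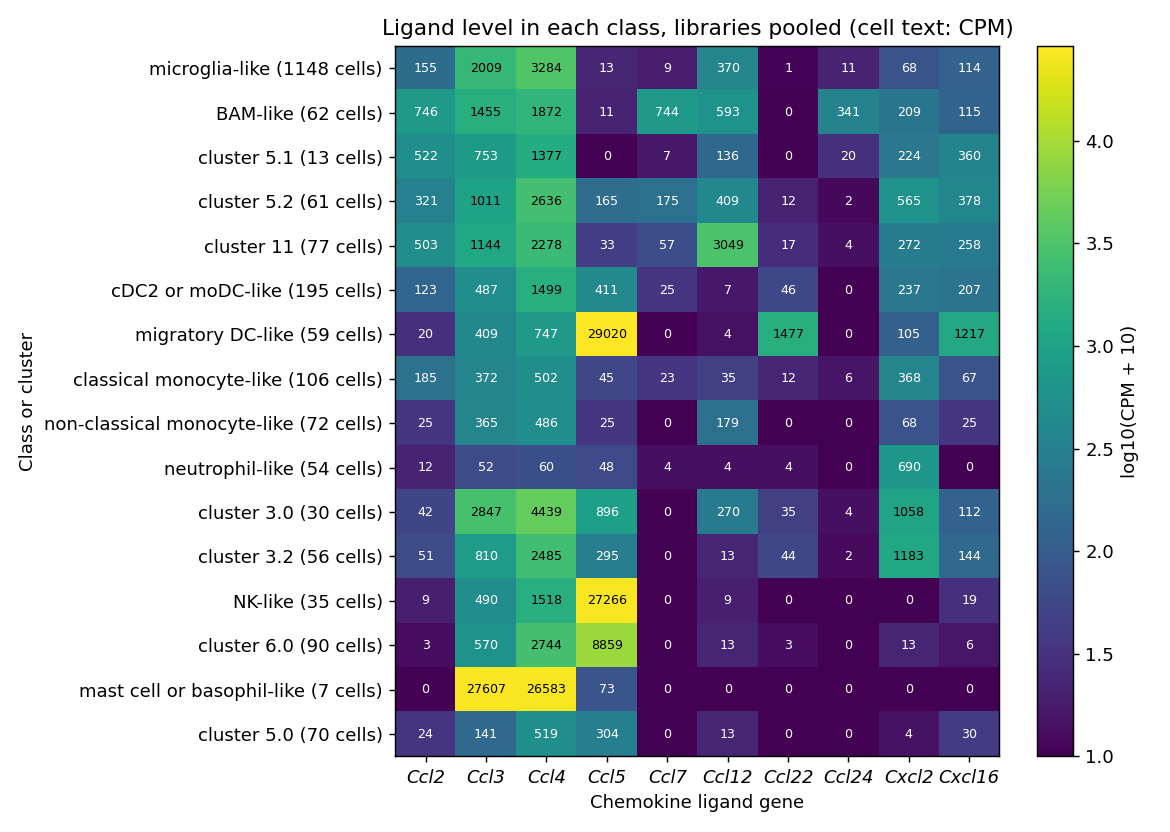
Level of each ligand in each class or cluster with the 3 libraries pooled, in CPM (printed) and as log10(CPM + 10) in colour. The mast-cell-or-basophil-like row stands out for Ccl3 and Ccl4 at 27607 and 26583 CPM, and the migratory DC-like and NK-like rows for Ccl5 at 29020 and 27266 CPM.

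Ccl3 and Ccl4 were uneven within the microglia-like cells of library 1. In cluster 0.0, led by P2ry13 and P2ry12, 33.0% of 382 thinned cells had Ccl3 and 37.2% had Ccl4, with means of 1.00 and 1.63 UMIs per 2000. In clusters 0.1, 1.0 and 1.1 the share with Ccl4 was 52.5, 71.0 and 67.2%. In clusters 2.0, 2.1 and 2.2, led by genes such as Gdf15, Tnf, Egr1 and Il1a, it was 91.7, 89.9 and 94.7%, with means of 18.6, 11.6 and 16.5 Ccl4 UMIs. Mean Ccl3 was 11.1, 7.07 and 11.3 UMIs there, and single cells reached 75. The intervals of cluster 0.0 and of these 3 clusters did not overlap for either ligand. Ccl12 differed less, with 23.3% of cells in cluster 0.0 and 28.9 to 35.0% in clusters 2.0 to 2.2. The clustering used other genes of these cells, so no test was made.

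**Figure D4:**
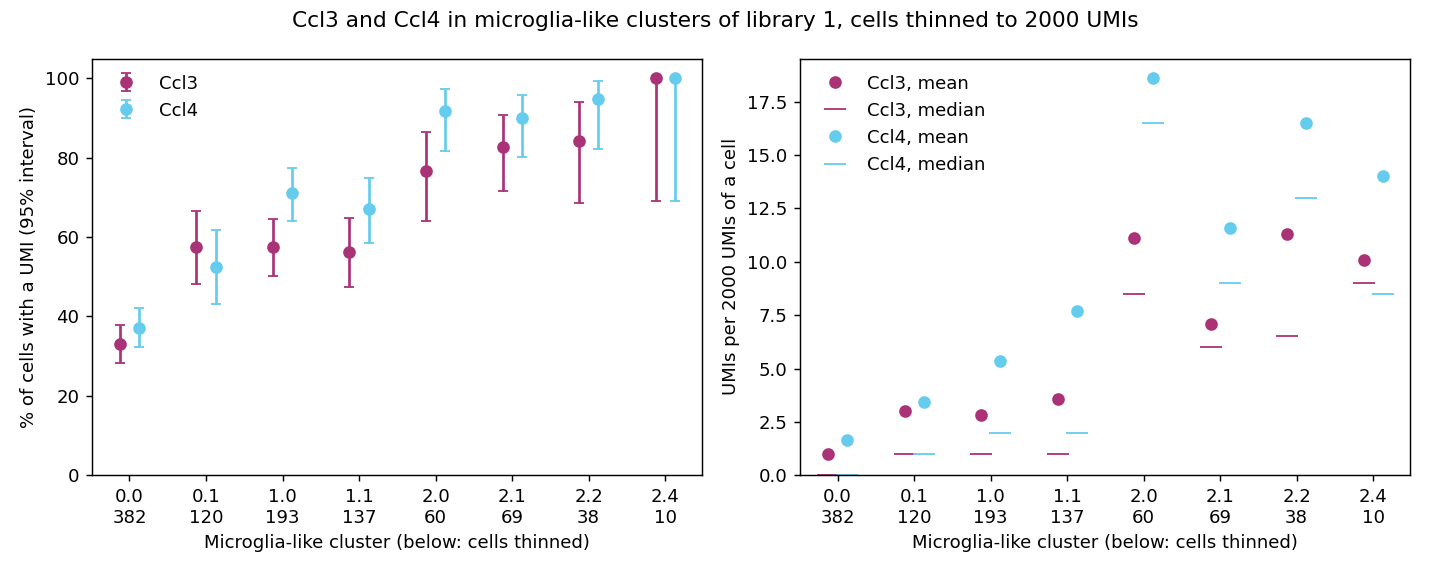
Left, percent of thinned microglia-like cells of library 1 with a UMI of Ccl3 or Ccl4 in each cluster of at least 10 cells, with exact 95% intervals. Right, mean and median UMIs per 2000 UMIs of a cell; Ccl4 rises from a mean of 1.63 in cluster 0.0 to 18.6 in cluster 2.0.

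Microglia-like cells of library 1 with a UMI of Ccl3 or Ccl4 after thinning (744 cells) were compared with those without (268 cells). Nfkbiz and Nfkbid, which encode IkB-type proteins, were higher in the positive cells, as were Tnf, Il1b, the immediate early transcription factors Atf3 and Nr4a1, and the ligands Cxcl2 and Ccl2. Of 4615 genes with at least 50 UMIs, 1.24% were at least 2-fold higher in positive cells and 0.303% at least 2-fold lower. Of 16 genes tested from an NF-kB pathway and feedback list, 8 were 2-fold higher and 15 lay above 0, with a median log2 ratio of 0.99 where all genes had -0.07. The highest were Nfkbiz (78.6 against 14.9 CPM, log2 ratio 2.24 ± 0.50, counting SE), Il1b (1.77 ± 0.41), Tnf (1.70 ± 0.28) and Nfkbid (1.70 ± 0.30). The lowest were Nfkb1 (-0.22 ± 0.21) and Rela (0.05 ± 0.26). Of 16 immediate early genes, 8 were 2-fold higher and 16 lay above 0, with a median of 0.97. Atf3 (585 against 149 CPM, 1.95 ± 0.17), Nr4a1 (1.94 ± 0.31), Egr1 (1.51 ± 0.25) and Egr2 (1.14 ± 0.55) led, and Klf4 (0.04 ± 0.32) and Ier5 (0.25 ± 0.06) were lowest.

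Heat shock genes differed little, with 0 of 9 past 2-fold and a median of 0.22, led by Hsp90aa1 at 0.49 ± 0.11. Of 2 interferon genes tested none passed 2-fold. All 14 homeostatic microglia genes lay below 0 and none by 2-fold, with a median of -0.22. P2ry12, the purinergic receptor that marks resting microglia, was at 5044 CPM in the positive cells against 6274 CPM (-0.32 ± 0.03). Of the receptors, Ccrl2, an atypical receptor, was higher in positive cells (476 against 220 CPM, 1.1 ± 0.14). Before thinning, positive cells had a median of 4138 UMIs and negative cells 2887, and mitochondrial shares of 1.15 and 1.12%. Immediate early and heat shock genes also respond to handling of tissue, and the part of cell isolation in these values was not tested.

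Among the other ligands, Cxcl2 was at 47.0 CPM in the positive cells against 9.33 CPM (2.09 ± 0.61). It was found in 24 of 744 and 5 of 268 cells (3.23 and 1.87%). The positive cells had 70 Cxcl2 UMIs, and a single cell of cluster 2.4 held 12. Ccl2 was at 94.1 and 33.6 CPM (1.42 ± 0.35), in 46 and 10 cells. Ccl12 (found in 27.4 and 21.3% of cells, 0.18 ± 0.15) and Cxcl16 (90.1 against 80.2 CPM, 0.14 ± 0.25) differed by about their counting error. Outside the lists, the highest genes were Cd74, H2-Aa, H2-Eb1, Dusp2, Marcksl1, Cdkn1a, Csrnp1, Gdf15, H2-Ab1 and Gm17056. Cd74 (2.94 ± 0.31), the MHC class II invariant chain, rested on few cells, since 5 positive cells held 239 of its 468 UMIs. The top 5 positive cells for each also held 94 of 157 H2-Aa, 72 of 124 H2-Eb1 and 96 of 200 H2-Ab1 UMIs. H2-Ab1 was found in 7.66% of positive and 7.46% of negative cells. Dusp2, a phosphatase induced by stimulation, was in 9.41% of positive and 2.24% of negative cells. The lowest were Hist4h4, Stxbp3, Rbck1, Prpf31 and Tmem106a, at -1.53 to -1.13.

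**Figure D5:**
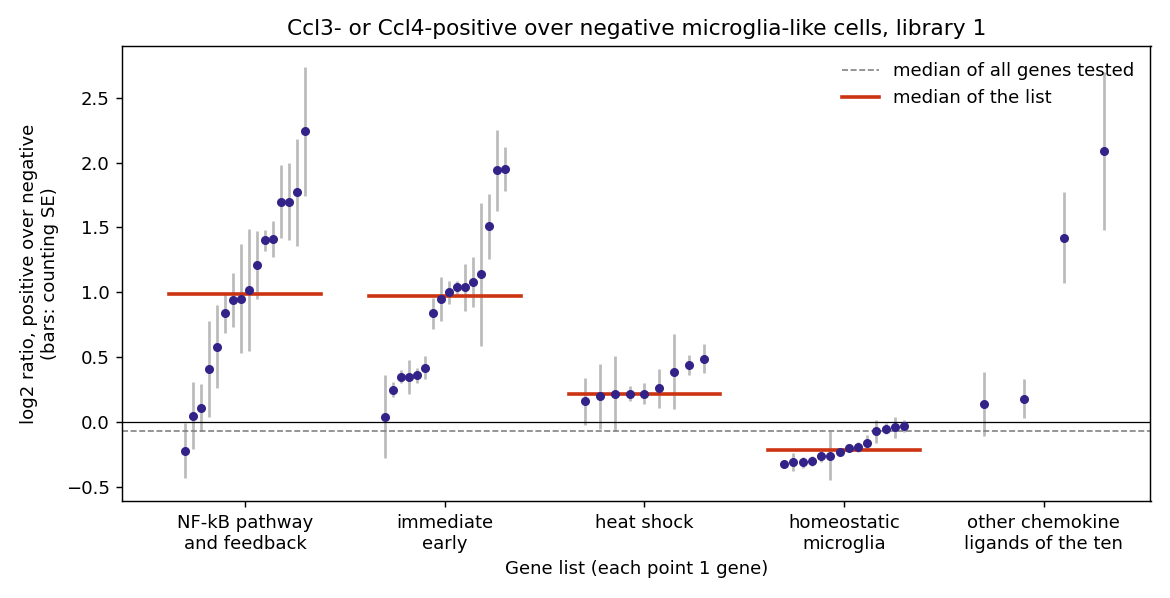
Log2 ratio of CPM between Ccl3- or Ccl4-positive and negative microglia-like cells of library 1 for each tested gene of 4 lists and for 4 other ligands, with counting standard errors. The NF-kB and immediate early lists have medians (red) of 0.99 and 0.97, the homeostatic list has -0.22, and the dashed line marks -0.07 for all genes.

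Between libraries, single clusters of the microglia-like class were compared only for cluster 0.1. It alone had at least 20 cells in both libraries 1 and 2 (136 and 36 cells). Its leading genes, such as Lag3, Ctsl and Cst7, held none of the listed microglia markers and 1 gene of the list for type 1 conventional dendritic cells, Cadm1, although all 10 microglia markers passed in it. It is therefore compared by its number and not as a class. There Ccl3 was at 1297 CPM in library 1 and 897 in library 2 (log2 ratio -0.52, interval -0.82 to -0.22), and Ccl4 at 1533 and 1090 (-0.48, -0.75 to -0.21). Ccl12 was higher in library 2, at 679 against 416 CPM (0.72, 0.34 to 1.09), and Cxcl16 at 168 against 73.0 CPM (1.23, 0.44 to 2.01). Of 4 ligands tested, 1 was 2-fold higher and 0 lower, against 1.80 and 5.07% of 1498 genes. The whole microglia-like class had a different mix of clusters in the 2 libraries. Over that class, Ccl3 (log2 ratio 0.98, 0.89 to 1.07) and Ccl4 (0.73, 0.66 to 0.81) were instead higher in library 2. Ccl12 (1.64, 1.43 to 1.84) and Cxcl16 (1.55, 1.22 to 1.88) were higher there, as in cluster 0.1. The direction for Ccl3 and Ccl4 thus depended on the cells taken. In library 2, the 19 cells of cluster 2.3, led by Spp1, Cst7 and Lpl, had 5309 CPM of Ccl3 and 7203 CPM of Ccl4.

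Ccl5, a chemoattractant of T cells and monocytes, came from 2 kinds of cells at nearly equal levels. In library 2 it was at 29917 CPM in 54 migratory-dendritic-like cells and at 30076 CPM in 22 NK-like cells. A cluster led by Gzmc, Gzmb, Cd7 and Cd3g (cluster 6.0) was lower, at 8568 CPM. The other libraries had similar levels in NK-like cells (24566 CPM in 3 cells of library 1, 23350 in 10 cells of library 3) and in cluster 6.0 (8422 and 9865 CPM). The migratory-dendritic-like cells stood at 31810 CPM in 2 cells of library 1, against 10867 CPM in 3 cells of library 3. Because library 2 held 54 of the 59 migratory-dendritic-like cells, they gave 72.2% of its Ccl5, while NK-like cells gave 43.5% in library 3. After thinning, Ccl5 was found in 94.4% of migratory-dendritic-like and 15 of 15 NK-like cells of library 2, with means of 66.2 and 60.3 UMIs per 2000. It was in 1.09% of microglia-like cells of library 1 and 19.0% of 58 in library 2, at a mean of 0.241 UMIs. In library 2, whose Ccl5 total was larger, 13.6% of 22 neutrophil-like cells also had it (median depths 3748 and 3552 UMIs). Among the microglia-like cells of library 2 before thinning, Ccl5 was in 13 of 19 cells of cluster 2.3 (196 CPM). It was in 8 of 36 cells of cluster 0.1 (75.5 CPM). Whether these shares are background was not tested.

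Ccl22 and Cxcl16 shared the migratory-dendritic-like cells of library 2, whose leading genes include Ccr7 and Il12b. Ccl22 was at 1451 CPM there, in 68.5% of 54 thinned cells (unthinned 81.5%), against 29.4 CPM in the cDC2 or moDC-like cells. A single cell held 32.0% of its UMIs. In library 1, Ccl22 was at 0.826 CPM in microglia-like cells and had no UMI in the BAM-like cells, where the interval reached 5.16 CPM. Cxcl16 was at 1228 CPM, in 88.9% of the thinned cells, and its UMIs were even, with at most 4.65% in a cell. Elsewhere, microglia-like cells gave 62.2% of its UMIs in library 1 at 98.9 CPM and cluster 11 gave 56.8% in library 3 at 257 CPM. In single cells of library 2 the log2 values of Ccl5, Ccl22 and Cxcl16 had r of 0.01 to 0.06 over 54 cells.

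The Ccr2 ligands Ccl2, Ccl7 and Ccl12 lie close together on chromosome 11 (Ccl2 at 82035571 to 82037453, Ccl7 at 82045712 to 82047525, Ccl12 at 82101845 to 82103400), but their sources differed. In library 1, BAM-like cells had 746 CPM of Ccl2, 744 of Ccl7 and 593 of Ccl12. Microglia-like cells there had 103, 8.67 and 243 CPM. Of the 3, Ccl7 was the most unequal between the 2 classes, and 89.0% of it came from BAM-like cells in that library. When cells were named one by one rather than by cluster, only 8.11% of Ccl7 and 8.12% of Ccl24 over the libraries fell to BAM-like cells and most fell to microglia-like cells. Microglia-like cells held 69.5% of the Ccl12 UMIs of library 1. After thinning, Ccl12 was in 25.8% of microglia-like and 45.2% of BAM-like cells (unthinned 38.9 and 72.6%), Ccl2 in 5.53 and 37.1%, and Ccl7 in 1.09 and 27.4%. The lowest Ccl12 share among classes and clusters of library 1 with at least 20 cells was 16.7%, in 30 cells of cluster 5.2 at a median of 6506 UMIs, and its interval of 5.64 to 34.7% covers the microglia-like share. Among 48 neutrophil-like cells of the 3 libraries Ccl12 was in 2.08%. Within the 62 BAM-like cells Ccl2 and Ccl7 went together, with r = 0.67. Of 23 cells with Ccl2, 47.8% had Ccl7, against 15.4% of those without. A single BAM-like cell held 29.6% of the Ccl2 UMIs, and the top cell for Ccl7 held 29.5%.

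Ccl24, an eosinophil attractant, was BAM-like in library 1, at 341 CPM against 10.9 CPM in microglia-like cells. It was in 33.9% of thinned BAM-like cells (unthinned 69.4%) and 2.57% of microglia-like cells. Its UMIs were spread, with 16.8% in the top cell. In libraries 2 and 3, which had no BAM-like cell, it had 9 and 10 UMIs in all. Over cells, Ccl24 followed Ccl2 (r = 0.53) and Ccl7 (r = 0.48) within the BAM-like cells. BAM-like cells had a mean of 3.15 of the 10 ligands per thinned cell, near the 3.11 of migratory-dendritic-like cells of library 2. Microglia-like cells of library 1 had 1.66 and neutrophil-like cells of library 2 had 0.50.

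In library 3, 83.5% of Ccl12, 50.2% of Ccl2 and 37.1% of Ccl7 came from cluster 11, of 55 cells with cell cycle genes and Arg1 among its leading genes. A further 32.0% of Ccl7 was in cluster 5.2, all of it in 1 cell. Ccl12 stood at 3951 CPM there (interval 3828 to 4077), found in 40 cells. The 21 cells of the same cluster in library 2 had no Ccl12 UMI, so it was at least 355-fold higher in library 3, against 3 counts over the group. Ccl2 was at 643 against 37.1 CPM and Ccl7 at 73.9 CPM against none, at least 6.64-fold. Ccl3 (1125 against 1184 CPM), Ccl4 (2411 against 1834) and Cxcl16 (257 against 238) were within 2-fold. Of 7 ligands tested, 3 were 2-fold higher in library 3, against 13.7% of 3056 genes, and 0 lower, against 6.09%.

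The cells of cluster 11 were not alike in their microglia markers. Of the 55 cells in library 3, 25 had at least 0.3% of their UMIs from the 10 microglia markers, and of the 21 cells in library 2 none did. The range in library 3 was 0.0134 to 2.43%, with 4 cells between 0.2 and 0.4%, and in library 2 it was 0.00686 to 0.0794%. The 25 cells held 91.5% of the cluster's Ccl12 in library 3, at 6883 CPM against 704 CPM in the other 30 cells. They also held 84.6% of its Ccl2, 86.1% of its Ccl3 and 83.8% of its Ccl4. Cxcl2 and Ccl7 lay mostly in the other cells, but single cells weighed heavily, with 44.3% of the Cxcl2 UMIs and 41.1% of the Ccl7 UMIs in 1 cell each. Cxcl2 was at 48.2 CPM in the 25 cells and 452 CPM in the 30, and Ccl7 at 34.7 and 117 CPM. Ccl12 was found in 25 of 25 and 15 of 30 cells before thinning. This split was chosen after the values had been seen. With cells of at least 1000 genes only, the main source of Ccl12 became microglia-like cells (66.7%) in place of cluster 11 (22.6%). The 5 cells of library 3 named microglia-like also had high Ccl12, at 5773 CPM, but 76.8% of it was in 1 cell.

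Ccl2 was also higher in library 3 than in library 2 in cells named as dendritic-like and monocyte-like. In cDC2 or moDC-like cells it was at 391 against 31.0 CPM (log2 ratio 3.63, interval 3.12 to 4.14), in 21.1% of 38 and 2.11% of 142 thinned cells. In classical-monocyte-like cells it was at 256 against 14.6 CPM (3.82, 2.54 to 5.11), in 15.4% of 52 and 4.35% of 46 thinned cells, whose intervals overlap. The top cell held 37.8% and 31.9% of these library 3 UMIs, and without it, and without the top cell of library 2, the levels were 251 against 11.2 CPM and 176 against 11.7 CPM. In the first class 2 of 7 ligands (Ccl2, Ccl22) were 2-fold higher in library 3, where 3.35% of genes were. In the second, 1 of 5 (Ccl2) was higher, against 2.86%, and 1 (Ccl3, 274 against 615 CPM) was lower, against 2.71%. Ccl4 was within 2-fold in both classes. In non-classical-monocyte-like cells 0 of 2 ligands tested were higher, against 2.88%, and 1 (Ccl3, 248 against 654 CPM) was lower, against 4.53%. That Ccl3 value rested on a single cell, which held 86.5% of the 52 UMIs of library 2. Without the top cell of each library Ccl3 was at 181 CPM in library 3 against 94.6 CPM, so its direction turned.

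No class or cluster gave more than 18.7% of Cxcl2 with the libraries pooled. Without the second clustering, clusters 3.0, 3.2 and the neutrophil-like cells formed 1 neutrophil-like cluster, which gave 33.7%, the most of any source. With cells named one by one, neutrophil-like cells gave the most Cxcl2, at 35.0%. In the main clustering, the pooled Cxcl2 level was highest in cluster 3.2 (1183 CPM), cluster 3.0 (1058 CPM, with neutrophil genes and 9 of 10 microglia markers) and neutrophil-like cells (690 CPM). In cluster 3.2, 59.3% of 54 thinned cells had Cxcl2. In neutrophil-like cells 22.9% of 48 did, and a single cell held 33.3% of the UMIs. In microglia-like cells of library 1 it was at 60.9 CPM, in 2.87% of thinned cells. Its receptor Cxcr2 was highest in neutrophil-like cells, at 182 CPM, but it is among the markers that named that class. Cluster 3.2, which it also led, held the largest part of the Cxcr2 UMIs (38.8%).

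Over 22 sums of class and library with at least 20 cells, the ligands' log2(CPM + 10) was compared with that of 7997 genes, as a description of sums that share libraries. Ccl3 was most like Ccl4 (r = 0.90), and Ccl2 most like Ccl7 (r = 0.84). Ccl7 was also like Pf4 and Cbr2, Ccl24 like the macrophage lectins Cd209f and Cd209g (both r = 0.92) and Cbr2, and Ccl22 like Tbc1d4, Zmynd15 and Ccr7. Cd209f and Cbr2 were among the markers that named the BAM-like class, and Ccr7 among those of the migratory-dendritic-like class. These classes entered from library 1 only and library 2 only, so such matches follow in part from the naming. Ccl5 was like Stat4, Serpinb9 and Serpinb6b. Ccl12 was like Gpr84, Il1a and Gm16118, Cxcl2 like Ccr1, Kdm7a and Il1b, and Cxcl16 like Cd83, Gm17056 and Scpep1. Ccl2 was also like P4hb and Smyd5, Ccl3 like Snx5 and Git2, and Ccl4 like Alkbh1 and Zfp644. Of these 30 matches, 13 were found again with a pseudocount of 1 CPM and 22 with 100 CPM.

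Of 27 other chemokine ligand genes listed, 24 could be looked up by a single row, 19 had any UMI and 10 had at least 100. Ccl6 and Ccl9 had the most, with 4657 and 4122 UMIs. Microglia-like cells were their largest source, at 22.5 and 28.5%. Cxcl10 followed with 1891 UMIs, 41.4% of them in cluster 11. Pf4 and Ccl8 were BAM-like genes, with 78.4% of 1409 and 89.0% of 136 UMIs there. Xcl1, an NK- and T-cell chemokine, was at 2817 CPM in cluster 6.0, which held 92.6% of it. Cxcl13, a B-cell attractant, came to 97.1% from cluster 11 and stood at 111 CPM in library 3 against 0.937 and 0.25 in libraries 1 and 2. Ccl17, which like Ccl22 binds Ccr4, had its highest level in migratory-dendritic-like cells (960 CPM). Its largest source was the cDC2 or moDC-like cells, with 46.9% of 1709 UMIs. Of the receptors, Ccr2 was highest in classical-monocyte-like cells (468 CPM against 5.34 in microglia-like cells), a class named in part by Ccr2 itself. Cxcr6 was in cluster 6.0 (99.5%). Ccr4 had no UMI in any library and Ccr3 had 7.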

How the data were processed

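The authors deposited 1 matrix of UMI counts (27998 genes, 2149 barcodes), made with Cell Ranger 2.0.1 and mm10 per the submitters' processing notes. Counting of reads that match several genes is not given in the sources used here, so a split between related ligands cannot be told. Here cells with at least 500 genes and at most 10% mitochondrial counts were kept (2144), and 9 doublets called by Scrublet (0.420%, a low yield) were removed, so doublets may remain. Clusters (scanpy 1.11.5, 2000 variable genes without chemokine ligands, 30 components, 15 neighbours, Leiden 0.5, with clusters of at least 100 cells clustered again) were named from marker lists by a rule settled after the clusters were seen. A marker passed with UMIs in at least 30% of cells and 2 times the median CPM over clusters. A name needed 3 passing markers and either 50% of its list with 1 among the 10 leading genes or 90% of the list. Lists were ranked by their number of leading genes and then by the share passing. Where the first list passed below 90%, a cluster stayed unnamed if another list passed as large a share. It also stayed unnamed if another list with at least 3 passing markers had more leading genes. The BAM-like cluster passed for 9 of 10 BAM markers, with 8 leading, and was therefore named although all 10 microglia markers passed. Intervals are exact Poisson for CPM and Clopper-Pearson for shares. Log2 ratios had 1 count added. They were tried on simulated counts drawn without cell-to-cell spread and for better-counted genes only, which covers counting error alone. Text names all 10 ligands and 3 matches per ligand. For positive against negative cells it names at most the 4 highest and 2 lowest genes of each list. Outside the lists it names the 10 highest and 5 lowest genes there. Other chemokine ligands and receptors named by their sources follow no such ranking. Cells named one by one, other filters and thinning were tried as alternatives. The members and lists were chosen with earlier results of these data known. The labels' protocol speaks of a larger number of samples than the 3 described, and the rest were not analysed here.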

Additional observations from a re-analysis of the deposited data

How the results depend on the processing

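Of the recomputed main-source percentages and list medians, 60 left the 95% counting interval of the reported value and 56 did not. Only the list medians have a sign, and none of them reversed. For cluster 11 (Ccl12) and cluster 3.2 (Cxcl2), another clustering's share is the sum over all its clusters made up of at least 50% of their cells. With a Leiden resolution of 1.0, cluster 3.2 gave 25.4% of Cxcl2. With the ligand genes kept for clustering, the shares were 23.9% (Ccl2), 59.6% (Ccl7), 67.7% (Ccl12), 52.2% (Ccl24) and 15.8% (Cxcl2). With at least 1000 genes per cell they were 53.5% (Ccl2), 67.3% (Ccl3), 64.2% (Ccl4), 67.4% (Ccl5), 22.6% (Ccl12), 77.1% (Ccl22), 17.2% (Cxcl2) and 36.0% (Cxcl16). With at most 5% mitochondrial counts they were 17.1% (Ccl2), 53.2% (Ccl3), 48.8% (Ccl4), 68.8% (Ccl12), 12.4% (Cxcl2) and 20.1% (Cxcl16), and no cluster was named BAM-like. With doublets kept they were 18.3% (Ccl2), 54.8% (Ccl3), 49.8% (Ccl4), 70.5% (Ccl12) and 21.1% (Cxcl16). With cells named one by one they were 71.3% (Ccl2), 74.3% (Ccl3), 68.0% (Ccl4), 62.1% (Ccl5), 8.11% (Ccl7), 8.12% (Ccl24) and 40.6% (Cxcl16). Without the microglia-like cell with the most Ccl2 UMIs, chosen after seeing the data, it was 25.9% (Ccl2). The cause of these moves was not tested. The source with the most UMIs was also compared in these 6 settings. It was judged the same for 10, 9, 8, 5, 8 and 6 of the 10 ligands, in that order. It was the same for 8 without the second clustering, a setting added after seeing the data. Ligands whose source could not be matched are not among these counts. With at most 5% mitochondrial counts they were Ccl7 and Ccl24, led by 1 unnamed cluster at 68.5 and 75.4%. With cells named one by one they were Ccl12, led by microglia-like cells at 75.1%, and Cxcl2, led by neutrophil-like cells at 35.0%. Without the second clustering it was Cxcl2, led by neutrophil-like cells at 33.7%. Leaving out 1 library at a time gave ranges of 22.1 to 40.3% (Ccl2), 20.5 to 71.5% (Ccl3), 14.7 to 69.5% (Ccl4), 21.5 to 70.3% (Ccl5), 0 to 88.1% (Ccl7), 0.597 to 78.3% (Ccl12), 47.0 to 85.7% (Ccl22), 0 to 78.7% (Ccl24), 7.32 to 24.3% (Cxcl2) and 7.56 to 41.9% (Cxcl16). The median of the NF-kB list was 1.29 with positive cells set at 2 UMIs and 1.48 with thinning to 1000 UMIs, and the medians of the other lists moved less. No paired analysis was possible because each condition had 1 library and no suffix is tied to a condition. With 1 library each, differences between libraries have no replicate check, and classes with few cells, such as the 5 microglia-like cells of library 3, give levels that 1 cell can set.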
